A study of Mus musculus with 6 samples.

Results

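The clustered histone genes were examined by RNA-seq in N9 microglia, an immortalized cell line derived from mouse brain. They were taken from the deposited count table as every protein-coding gene whose name starts with Hist and a cluster number from 1 to 4 followed by h, which gave 67 of 54532 genes. Their levels, the spread between libraries and the difference between the groups are given here. RNA came from 3 samples of untreated N9 cells (control) and from 3 samples of N9 cells kept for 6 h with lipopolysaccharide (LPS, the outer membrane component of gram-negative bacteria) at 1 µg/ml. All 6 libraries come from this single cell line, and nothing in the labels says whether the replicates were separate cultures, so p-values measure the spread between these samples, which may be technical.

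Nucleosomes are built from the core histones H2A, H2B, H3 and H4, and the linker histone H1 binds the DNA between them. The genes counted here are mostly the replication-dependent ones, which lie together in clusters, are largely without introns and are transcribed mainly in S phase, when new DNA has to be packaged. Their mRNAs end just after a conserved stem-loop, bound by the protein SLBP, in place of a poly(A) tail, although several of these genes can also give longer polyadenylated transcripts. Replacement histones such as H3f3a, H3f3b, H2afz and H1f0 are encoded outside these clusters. They are mostly made throughout the cell cycle, and most have ordinary polyadenylated mRNAs.

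The clustered histone genes were at low counts in these libraries, except Hist1h1c, a linker histone gene. Between 1586 and 2140 reads per library were counted on all 67 genes together, of library totals between 16363767 and 17956772. Hist1h1c alone held 78.4% of all member counts, and 1 of the 67 genes had a mean of at least 50 counts per library. A mean of at least 10 counts was reached by 10 genes, 29 genes were above 0 in every library, and 12 were at 0 in all 6. A count of 0 allows a level of up to 3 counts, or between 0.161 and 0.19 CPM (counts scaled to the library size) in these libraries, by counting error alone. The step that selects RNA for the libraries is not given in the sources used here, so low counts cannot be read as low expression of mRNAs without a poly(A) tail.

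Because the stem-loop is the feature that sets most of these mRNAs apart, it was searched for in the GENCODE M21 transcripts (mouse build GRCm38), in which all 67 genes have the same position as in the deposited table. A match to the histone 3′ stem-loop, of 16 bases and read on the transcript strand only, was found in 46 of the 67 genes, against 24 of 21884 other protein-coding genes (0.11%). There were 8 forms of it. The commonest was shared by 26 genes, the next by 7 and the third by 6. The stem-loops of the 8 tested genes that have one are shown with 5 bases on each side, 5′ to 3′, with the stem-loop in capitals.
Hist1h1c, chr13:23739512-23739527, plus strand: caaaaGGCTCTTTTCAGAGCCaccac
Hist1h1e, chr13:23621782-23621797, minus strand: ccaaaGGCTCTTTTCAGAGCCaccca
Hist1h2ao, chr13:21810898-21810913, plus strand: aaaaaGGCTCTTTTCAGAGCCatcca
Hist1h3e, chr13:23561903-23561918, minus strand: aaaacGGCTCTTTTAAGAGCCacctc
Hist1h4i, chr13:22040966-22040981, minus strand: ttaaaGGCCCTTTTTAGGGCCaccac
Hist1h4j, chr13:21735437-21735452, plus strand: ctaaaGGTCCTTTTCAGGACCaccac
Hist1h4n, chr13:21831798-21831813, minus strand: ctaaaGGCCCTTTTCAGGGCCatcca
Hist2h4, chr3:96262939-96262954, minus strand: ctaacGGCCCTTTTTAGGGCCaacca
The H1, H2A and H3 genes of this set have stems that differ from those of the H4 genes, while Hist1h1c, Hist1h1e and Hist1h2ao have the same 16 bases.

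The annotated transcripts differed in how far they run past the stem-loop, and most counts lay on genes whose annotation runs on. In 23 genes the transcript goes on for over 100 bases, and these genes held 89.8% of the member counts, or 11.4% for the 22 of them other than Hist1h1c. In another 23 genes it ends within 100 bases, and these held 4.15%. The remaining 21 genes have no match in their annotated transcripts and held 6.05%. Some of these transcripts are shorter than the RefSeq gene, such as those of Hist1h3h (411 against 488 bases) and Hist1h4k (312 against 409). The RefSeq genes were not searched for the stem-loop, so a missing match need not mean that the gene lacks one. Of the 11 genes that passed the filter for testing, 6 were in the first class, 2 in the second and 3 in the third. The median of the mean count per library was 5.33, 2 and 2.17 in the 3 classes, while the median level per kilobase was 0.236, 0.175 and 0.187 CPM per kb, and the median gene length was 1249, 485 and 405 bases. Pooled over each class without Hist1h1c, the counts per kb were 31.8, 37.3 and 41, with the first class the lowest. The classes thus differ in gene length as well as in counts, and the part of gene length was not tested. Hist1h1c runs 840 bases past its stem-loop in GENCODE, whereas its RefSeq gene, named H1f2, spans 725 bases in all.

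**Figure D1:**
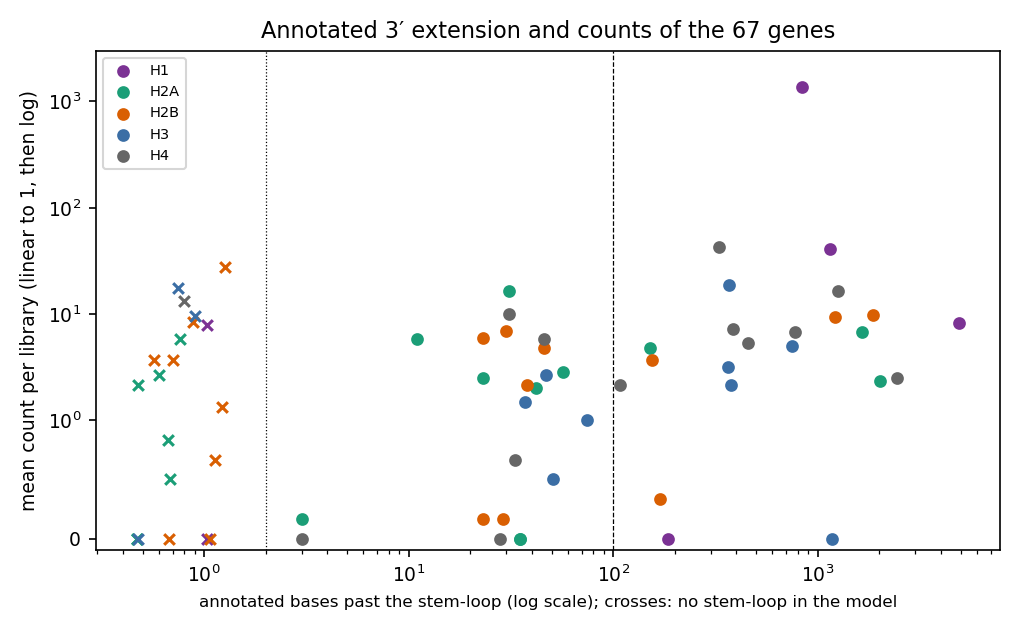
Mean count per library of each of the 67 clustered histone genes (vertical axis, linear to 1 and logarithmic above) against the number of annotated bases past the stem-loop (horizontal log axis), colored by histone type. Crosses left of the dotted line are the 21 genes without a match and have no position on the horizontal axis, and the dashed line stands at 100 bases. Hist1h1c, the highest point, lies at 840 bases.

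Promoters of RefSeq (GRCm38.p6) were matched for 62 of the 67 genes, with 63 promoters, and 3 motifs were searched on both strands. The letters CCAAT were in 54 promoters (85.7%), against 37.4% of 32851 RefSeq promoters of the same length. TATAAA, the core of the TATA box, was in 35 (55.6%), against 13.6%. AAACACA, a motif known from H1 gene promoters, was in 9 (14.3%), against 7.2%, and the promoter of Hist1h1c holds AAACACA and CCAAT but not TATAAA. These matches are descriptions of the sequence, and no measurement of promoter activity was made.

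LPS against control was tested with edgeR's quasi-likelihood test over 12296 genes, of which 11 were clustered histone genes. The other 56 had too few counts for the filter, 44 of them with at least 1 read and none with more than 23 in a library. At an adjusted p under 0.05, 0 of the 11 were higher in LPS-stimulated cells, where 18.7% of all tested genes were, and 1 was lower, where 15.7% of all tested genes were. None was a DEG by the additional threshold of an absolute log2 fold change (log2FC) over 1.5, which 2.65% of tested genes passed. In none of the 11 were the CPM of the groups without overlap, while 45.3% of all tested genes had no overlap. At an unadjusted p under 0.05, 1 of the 11 passed. With no filter on low counts, 2 of the 55 genes with a count passed at an unadjusted p under 0.05, and with DESeq2 1 of 55 did. The share of all genes at an unadjusted p under 0.05 was not worked out. No result about the members is drawn from these unadjusted counts. The log2FC of the 11 lay between -0.61 and 0.42, with 6 below 0 and 5 above, and the median was -0.0046, beside 0.0036 over all tested genes.

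Hist1h1c (ENSMUSG00000036181, chr13:23738808-23740367, plus strand, a single exon in the longest transcript) was the gene that fell. In the order of the replicate numbers, as throughout, its counts were 1494, 1374 and 1654 in control cells and 1237, 1220 and 1234 with LPS. After normalization these were 87.2, 77.9 and 89 CPM in control cells and 78.4, 74.4 and 75.1 CPM with LPS. Control replicate 2 lay just below LPS replicate 1, so the groups overlapped, and the 3 LPS libraries lay closer together than the 3 control libraries. As CPM of the total counts, without TMM scaling, the values were 90.1, 80.5 and 92.1 in control and 75.6, 71.7 and 72.8 with LPS, and did not overlap. The level was 84.7 ± 5.96 CPM in control (SD, n = 3) and 76 ± 2.13 CPM with LPS (SD, n = 3). The log2FC was -0.16 (95% interval -0.28 to -0.036, edgeR adjusted p = 0.044), a fall to 0.897 of the control level. This call sits at the threshold. Over 16 alternative settings the log2FC stayed between -0.22 and -0.11 and the adjusted p between 0.00559 and 0.348, with the call kept in 9. It was lost with DESeq2 (adjusted p = 0.071) and on leaving out control replicate 1 (0.0797) or 3 (0.169), or LPS replicate 2 (0.143) or 3 (0.117). Per kilobase, Hist1h1c was at 54.3 ± 3.82 CPM per kb in control and 48.7 ± 1.37 with LPS (SD, n = 3 each). Of its 50-base windows in the annotated transcripts, 91.5% occur in no other gene.

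Hist1h1e (ENSMUSG00000051627, chr13:23620629-23622558, minus strand) is the other tested linker histone gene. It had 27, 36 and 66 counts in control and 30, 29 and 60 with LPS. Replicate 3 was the highest in both groups, and the groups overlapped. The level was 2.39 ± 1.03 CPM in control and 2.44 ± 1.05 CPM with LPS (SD, n = 3 each), and the log2FC was 0.025 with a 95% interval from -0.71 to 0.76 (edgeR adjusted p = 0.963). Its annotated span overlaps those of Hist1h2be and Gm11398 on the same strand, so reads from these genes may be shared or dropped. The remaining 4 H1 genes were not tested. Hist1h1d had 11, 6 and 9 counts in control and 9, 9 and 6 with LPS, Hist1h1b had 5, 6 and 12 and then 5, 7 and 12, and Hist1h1a and Hist1h1t, the latter known from testis, were at 0.

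Among the H4 genes, 5 of 13 were tested, and Hist1h4i (ENSMUSG00000060639, chr13:22040636-22041362, minus strand) was the highest of all members after Hist1h1c per kilobase. It had 36, 39 and 53 counts in control and 41, 42 and 48 with LPS, or 3.28 ± 0.557 and 3.71 ± 0.273 CPM per kb (SD, n = 3 each). The groups overlapped, the log2FC was 0.17 and the 95% interval ran from -0.32 to 0.67 (edgeR adjusted p = 0.619). Hist1h4k had 9, 11 and 22 counts in control and 10, 15 and 13 with LPS (log2FC = -0.0046). Hist1h4n had 10, 8 and 9 counts in control and 11, 8 and 14 with LPS (log2FC = 0.42). Their groups overlapped as well. Hist2h4, on chromosome 3, had 21, 18 and 14 counts in control and 17, 21 and 8 with LPS (log2FC = -0.072). Hist1h4j had 12, 1 and 14 counts in control and 3, 0 and 13 with LPS (log2FC = -0.61), and its libraries fell into high and low ones within both groups. It passed the filter through 3 libraries, at a mean of 7.17 counts. The H4 genes together had 121, 89 and 143 counts in control and 106, 112 and 110 with LPS.

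Of the H3 genes, which encode the replication-dependent counterparts of H3f3a and H3f3b, 2 of 12 were tested. Hist1h3e had 11, 36 and 13 counts in control and 17, 22 and 14 with LPS (log2FC = -0.046), with control replicate 2 standing above the other 5 libraries. Hist1h3h had 17, 20 and 14 counts in control and 7, 28 and 20 with LPS (log2FC = 0.24), and its LPS libraries included both the lowest and the highest value. Hist1h3i, which was not tested, had 8, 17 and 9 counts in control and 14, 3 and 6 with LPS, and at 1.36 CPM per kb over all libraries it was among the 10 highest members per kilobase. All H3 genes together had 50, 91 and 55 counts in control and 54, 72 and 50 with LPS, with replicate 2 the highest in both groups.

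For the H2A and H2B genes, which form the dimers flanking the H3-H4 tetramer in the nucleosome, 1 of 18 was tested in each type. Hist1h2ao had 25, 14 and 23 counts in control and 12, 20 and 6 with LPS, and the log2FC was -0.57 with a 95% interval from -1.48 to 0.35 (edgeR adjusted p = 0.343). Its groups overlapped, and 6.5% of its 50-base windows occur in no other gene. Hist1h2bc had 23, 33 and 22 counts in control and 21, 24 and 42 with LPS, and the log2FC was 0.29 with a 95% interval from -0.42 to 0.99 (edgeR adjusted p = 0.554). Here LPS replicate 3 stood above the others. All H2A genes together had 51, 42 and 89 counts in control and 57, 67 and 30 with LPS, so replicate 3 was the highest of the control libraries and the lowest of the LPS libraries. All H2B genes together had 74, 97 and 112 counts in control and 89, 77 and 84 with LPS.

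**Figure D2:**
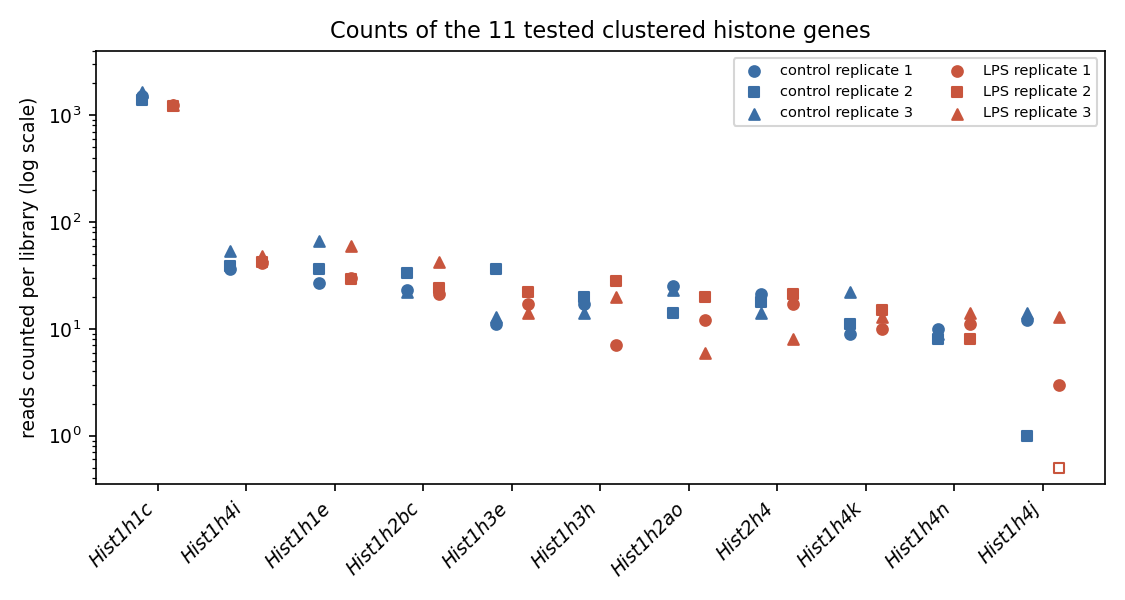
Reads counted per library (vertical log axis) for the 11 tested clustered histone genes, with control libraries in blue, LPS libraries in red and a symbol for each replicate number. The open square of Hist1h4j marks a count of 0, drawn at 0.5. Hist1h1c lies between 1220 and 1654 counts, and no other gene exceeds 66.

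The 10 tested genes other than Hist1h1c had adjusted p-values from 0.343 to 0.995, and their 95% intervals included 0. These intervals reached between 0.50 and 1.82 to either side of the estimate on the log2 scale. Thus a difference of the size measured for Hist1h1c was not detectable for them in these libraries, given both their counts and their spread between libraries. Of the 10, Hist1h4i and Hist1h4n were above 0 and Hist1h2ao and Hist1h4j below 0 in every alternative that gave them a value, whereas the other 6 changed sign in 1 to 5 of 16. The sizes were not stable. Hist1h4j had a log2FC of -0.028 without LPS replicate 2 and of -2.35 without LPS replicate 3. Hist1h2ao had -1.04 without LPS replicate 2 and -0.23 without LPS replicate 3. The range was 0.077 to 0.36 for Hist1h4i and 0.19 to 0.61 for Hist1h4n. In bulk RNA, fewer cells in S phase and less histone mRNA per cell cannot be told apart.

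Summed over all 67 genes, the counts were 1833, 1741 and 2140 in control and 1587, 1593 and 1586 with LPS. As CPM of the library total this was 111 ± 8.61 in control and 94.7 ± 1.96 with LPS (SD, n = 3 each), a ratio of 0.857, and the groups did not overlap on this scale. With TMM-scaled library sizes they did, at 107, 98.7 and 115 CPM in control and 101, 97.1 and 96.6 CPM with LPS, a ratio of 0.917. The sum follows Hist1h1c, whose own ratio by total counts was 0.838. Without it, the other 66 genes had 339, 367 and 486 counts in control and 350, 373 and 352 with LPS. These came to 23 ± 3.56 and 21.4 ± 0.577 CPM (SD, n = 3 each), a ratio of 0.929 by total counts and of 0.994 by TMM, with overlapping groups on both scales. By total counts, the ratios by type were 0.97 for H1 without Hist1h1c, 0.876 for H2A, 0.911 for H2B, 0.919 for H3 and 0.955 for H4. By TMM they were 1.04, 0.939, 0.975, 0.984 and 1.02, so those of H1 without Hist1h1c and of H4 lay on the other side of 1, and the groups overlapped for every type. By cluster, the 54 Hist1 genes took 97.7% of member counts, the 10 Hist2 genes 1.72%, the 2 Hist3 genes 0.41% and Hist4h4 0.143%.

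Relative to its level, Hist1h1c varied less between libraries of a group than the other tested members. Relative to counting error, which is a smaller part of the level at its high counts, it varied more than most of them. As a measure, the within-group coefficient of variation (CV) was the square root of the mean of both group variances of CPM, over the mean level. Its median was 34.7% over the 11 tested members and 37.2% without Hist1h1c, beside 6.75% over all tested genes, which were mostly counted more deeply. Hist1h1c had a CV of 5.57%. The lowest CV among the 10 others was that of Hist1h4i, at 12.6%, and the highest that of Hist1h4j, at 96.5%. The within-group variance was also divided by that of Poisson counting. At the same relative spread beyond counting error, this index is larger for genes of higher counts. It therefore does not rank the spread of genes counted to unlike depth, such as Hist1h1c and the other members. This index had a median of 2.85 over the tested members and 2.25 over all tested genes. It was over 1 in 9 of the 11 members and in 81.2% of all tested genes, about the same share. Hist1h1e had the highest index, 7.67, followed by Hist1h4j with 6.89 and Hist1h3e with 5.38, while Hist1h1c had 4.21. Hist1h4i (0.739) and Hist1h4n (0.484) varied no more than counting alone gives.

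**Figure D3:**
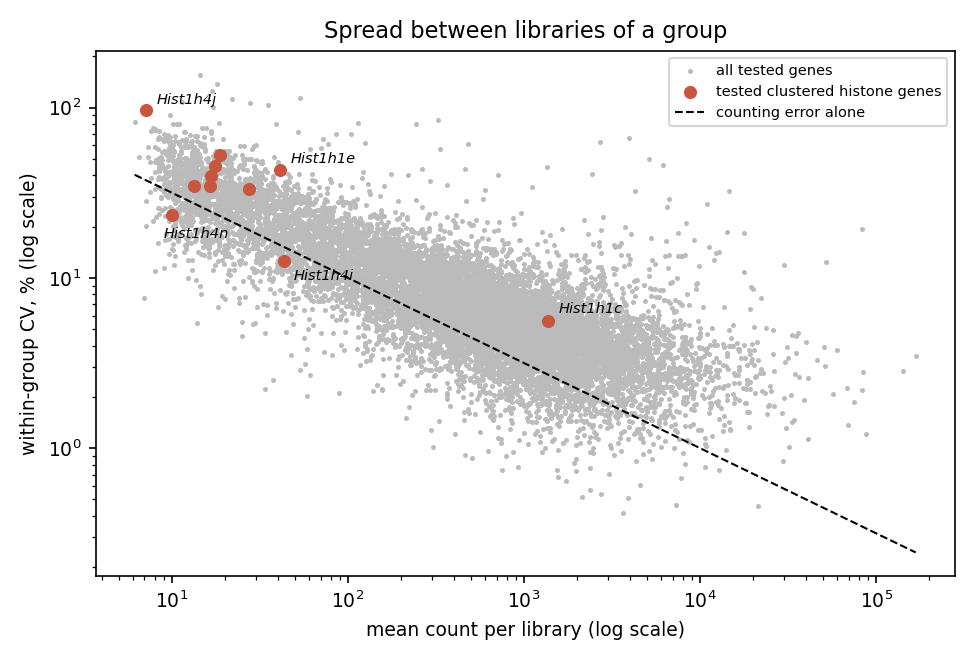
Within-group CV in percent (vertical log axis) against the mean count per library (horizontal log axis) for all 12296 tested genes (grey) and the 11 tested clustered histone genes (red). The dashed line is the CV that counting error alone gives. Among the red points Hist1h4i and Hist1h4n lie below the line, and Hist1h1c stands far to the right of the others.

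No library was high or low for all members at once. Among the 10 low tested genes, control replicates 1, 2 and 3 were the highest of their group for 3, 3 and 4 genes, and LPS replicates 1, 2 and 3 for 0, 5 and 5 genes. In the sum of the 56 untested genes, the counts were 148, 151 and 236 in control and 181, 164 and 114 with LPS, so replicate 3 was the highest control library and the lowest LPS library. The 10 low tested genes together had 191, 216 and 250 counts in control and 169, 209 and 238 with LPS, where replicate 3 was the highest in both groups. The index of variance over counting was 9.64 for this sum and 3.23 for that of the 10 low tested genes.

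How far these counts can be assigned to a single gene differed among the members. Fewer than 50% of the 50-base windows were unique in 33 of the 67 genes, among them 5 of the 11 tested genes and 7 of the 12 genes at 0. Whether reads with several matches were counted is not given in the sources used here, so zeros and ratios among near-identical copies such as Hist2h2aa1 and Hist2h2aa2, both at 0, are uncertain. Another gene of the table overlaps 24 of the members, and the use of strand in counting is also not given. Without these 24, the ratio of summed counts by library totals was 0.851.

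Most replacement histones were counted more deeply, and those that passed the test did not all move one way. Of the 13 on the list, H1foo, H1fx and H1fnt had at most 6 counts in a library and were not tested, and H2afy2 was tested at 13 to 16 counts. The list below and those that follow were written from textbook knowledge. Of 10 tested replacement histone genes, 1 rose, 4 fell and 5 did not pass the test (18.7% of all tested genes were higher and 15.7% lower), with a median log2FC of -0.15. H3f3b, one of the genes for histone H3.3, had 516, 491 and 491 CPM in control and 789, 749 and 784 CPM with LPS. All LPS libraries lay above all control libraries, and the log2FC was 0.63 ± 0.037 (SE, edgeR adjusted p = 4.49e-09). H3f3a, which encodes the same protein, had 192, 167 and 173 CPM in control and 170, 164 and 164 CPM with LPS, with overlapping groups (log2FC = -0.094, edgeR adjusted p = 0.203). H2afz, the gene of the H2A variant found at promoters, fell from 435 ± 40.1 to 359 ± 2.68 CPM (SD, n = 3 each, log2FC = -0.28, edgeR adjusted p = 0.00108). H2afx, whose protein is phosphorylated at DNA breaks, fell with a log2FC of -0.22, Cenpa, the centromeric H3 variant, with -0.24 and H2afv with -0.68. The linker variant H1f0 was at 24.2 ± 0.92 CPM in control and 20.8 ± 2.47 with LPS (SD, n = 3 each, log2FC = -0.21, edgeR adjusted p = 0.0974). Per kilobase, H2afz was at 224, H3f3b at 214 and H3f3a at 49 CPM per kb over all libraries, Hist1h1c at 51.5 and H1f0 at 10.9, and the next clustered gene, Hist1h4i, at 3.5.

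**Figure D4:**
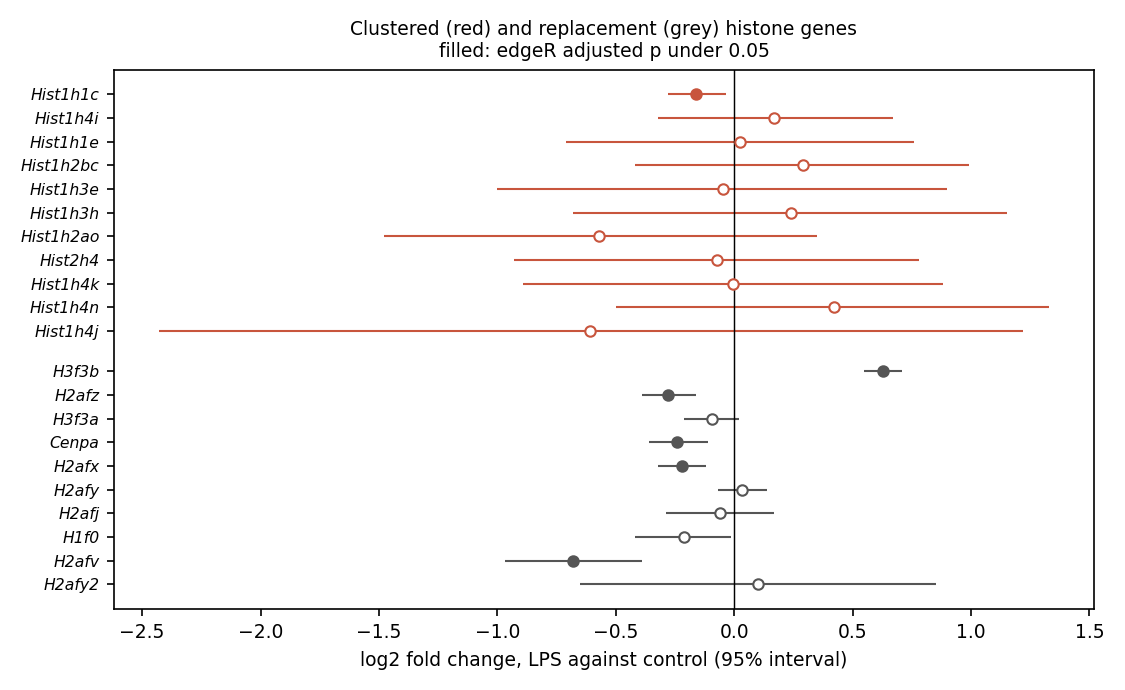
Log2FC of LPS against control with 95% intervals (horizontal axis) for the 11 tested clustered histone genes (red) and the 10 tested replacement histone genes (grey), filled where the adjusted p is under 0.05. The interval of Hist1h1c lies below 0, those of the other 10 clustered genes include 0, and H3f3b lies at 0.63.

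Of 21 tested genes that process histone mRNA, 3 rose and 4 fell, shares near those of all tested genes (18.7% higher and 15.7% lower), with a median log2FC of 0.046. Slbp, the stem-loop binding protein, had 54.7, 50.8 and 54.3 CPM in control and 44.6, 43.4 and 47 CPM with LPS, without overlap (log2FC = -0.24 ± 0.060 (SE), edgeR adjusted p = 0.00535). Eri1, the exonuclease that trims histone mRNA ends, fell with a log2FC of -0.20, as did Cstf2 (-0.15) and Sympk (-0.12), both parts of the cleavage machinery. The U7 snRNP proteins Lsm10 (0.37) and Lsm11 (0.28) rose, and so did Cpsf2 (0.17), another part of the cleavage complex. The counts of calls in this list moved with the settings, from 2 to 4 lower and from 1 to 5 higher. Among 25 histone chaperones, 4 rose and 11 fell, beside the same 18.7% and 15.7% of all tested genes, with a median of -0.13. Over the alternatives between 7 and 12 were lower and between 3 and 5 higher, with 7 lower without LPS replicate 2. Asf1b, the H3-H4 chaperone of dividing cells, fell from 97.1 ± 2.91 to 69.8 ± 3.13 CPM (SD, n = 3 each, log2FC = -0.48), and Rbbp7, Rbbp4 and Anp32e fell with a log2FC of -0.13, -0.16 and -0.14. Supt6, a histone chaperone of transcription elongation, rose from 200 ± 7.57 to 233 ± 9.77 CPM (SD, n = 3 each, log2FC = 0.22, edgeR adjusted p = 0.00194). Daxx, which deposits H3.3 together with Atrx, was the DEG of this list and rose from 24.5 ± 0.999 to 75.3 ± 2.35 CPM (SD, n = 3 each, log2FC = 1.62 ± 0.060 (SE), edgeR adjusted p = 1.88e-11). Asf1b, Daxx, Lsm10, Lsm11 and, among the replacement histones, H2afv and the 4 genes at low counts were named after their values were seen, as were the untested clustered genes other than Hist1h3i.

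The DNA replication genes, which are active in the same phase of the cell cycle as the clustered histone genes, were mostly lower with LPS. Of 47 genes, 43 fell and 1 rose (Orc1, also named after its value was seen), where 15.7% of all tested genes were lower and 18.7% higher, with a median log2FC of -0.39. Mcm6, a subunit of the replicative helicase, fell from 553 ± 12.8 to 471 ± 16 CPM (log2FC = -0.23), Pcna, the sliding clamp, from 376 ± 18.8 to 295 ± 8.01 (-0.35), and Rrm2, a subunit of ribonucleotide reductase, from 350 ± 1.94 to 245 ± 9.15 (-0.52; SD, n = 3 each). Of 26 genes of G2 and mitosis, 24 fell and 0 rose, beside the same shares of all tested genes, with a median of -0.34, and edgeR gave Top2a, the DNA topoisomerase of dividing cells, a log2FC of -0.40. Over all alternatives, between 38 and 44 of the replication genes and between 18 and 26 of the mitotic genes were lower. The 95% intervals of 9 of the 11 tested clustered histone genes included the median of the replication list, -0.39, so in these libraries a fall of that size could not be told from no difference for these 9. Those of Hist1h1c and Hist1h4i did not include it.

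**Figure D5:**
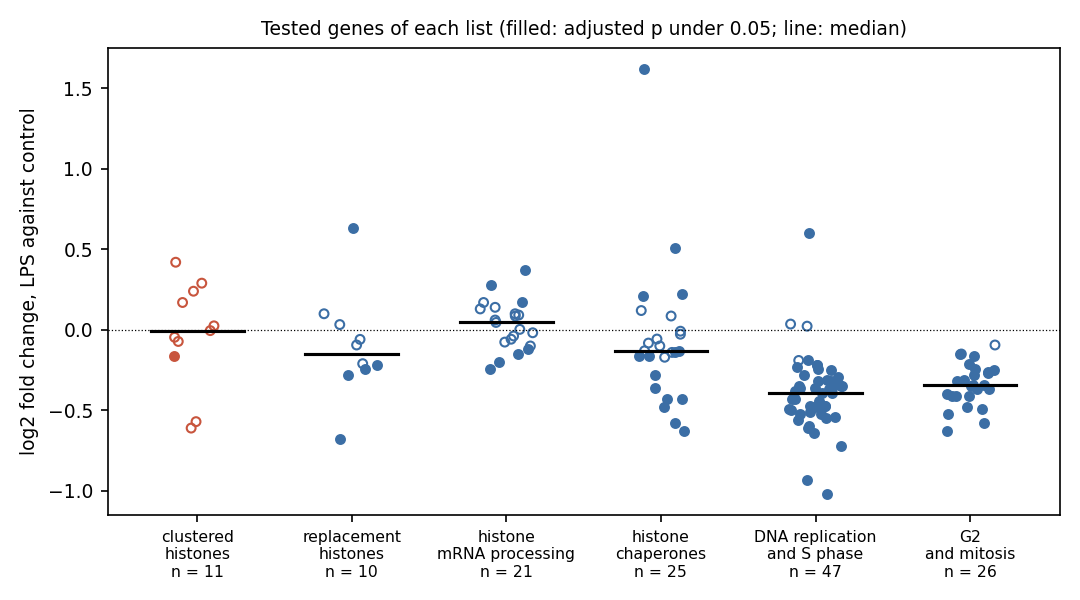
Log2FC of LPS against control (vertical axis) for the tested genes of the clustered histones (red) and of 5 related lists (blue), filled where the adjusted p is under 0.05, with the median of each list as a line. The medians lie at -0.0046 for the clustered histones, -0.39 for DNA replication and -0.34 for G2 and mitosis, and the highest point is Daxx at 1.62.

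Of 7 genes for other RNAs without a poly(A) tail, which leave out rRNA, 5 were at 0 in all libraries and 1, Rn7sk, was tested. It had 39, 33 and 57 counts in control and 52, 62 and 70 with LPS, with little distance between the groups (log2FC = 0.65 ± 0.23 (SE), edgeR adjusted p = 0.0452). Genes of the class snRNA had 128, 134 and 162 counts in all in control and 94, 104 and 115 with LPS, so the LPS libraries lay below the control libraries. Genes of the class snoRNA had 382, 402 and 414 counts in control and 367, 464 and 546 with LPS, with overlapping groups. Genes of the class scaRNA had 13, 25 and 30 counts in control and 23, 29 and 39 with LPS, also with overlap. Those of the class rRNA, which also lacks a poly(A) tail, had between 56537 and 95659 counts per library, with overlapping groups. Mitochondrial rRNA had 6244, 7216 and 7033 counts in control and 11796, 13141 and 13867 with LPS, without overlap. No test was run on these class sums, and their part in the counts of the histone genes was not tested. A histone pseudogene of the same clusters, Hist1h2al, which the rule for members leaves out, had 15, 16 and 12 counts in control and 11, 17 and 20 with LPS.

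Summed over 14 markers of microglia and macrophages there were 31535 to 35715 counts per library, but not every marker was well counted. Sall1 had at most 1 count in a library, P2ry12 at most 6 and Aif1 at most 9. C1qa had 10, 11 and 8 counts in control and 0, 3 and 6 with LPS, and was not tested. These markers of few counts were named after their values were seen. Over 18 hepatocyte markers the sums were 9, 316 and 522 counts in control and 5, 4 and 15 with LPS, and none of the 18 was listed at 0 throughout. Over 6 fibroblast markers they were 201, 8 and 143 counts in control and 128, 13 and 13 with LPS. Summed counts of neuron markers were between 454 and 531 and those of astrocyte markers between 1576 and 1834 per library. Nearly all of these counts lay on Map2 and Tubb3 and on Gja1 and Aldh1l1, and Gfap had at most 10 counts in a library. Within the neuron list, Tubb3 rose (log2FC = 1.67, edgeR adjusted p = 7.27e-07) and Map2 fell (log2FC = -0.41, edgeR adjusted p = 0.00221). Within the astrocyte list, Gja1 rose (log2FC = 0.18, edgeR adjusted p = 0.00989) and Aldh1l1 fell (log2FC = -0.29, edgeR adjusted p = 0.0129). Oligodendrocyte markers summed to 849 to 931 counts in control and 686 to 710 with LPS, without overlap, and Mbp fell (log2FC = -0.34, edgeR adjusted p = 0.00284). The part of these marker genes in the results above was not tested. Control replicates 2 and 3, which held most of the hepatocyte reads, were the lowest and the highest control libraries for Hist1h1c. Their part in its difference was not tested, and against control replicate 1 alone, where the lone sample is assumed to vary like the LPS group, the log2FC was -0.20 (edgeR adjusted p = 0.0552).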

How the data were processed

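RNA-seq of N9 microglia gave 6 libraries, 3 control and 3 with LPS, grouped by the labels. The authors deposited whole-number read counts per gene, without normalization. The submitters' processing notes name featureCounts version 1.5.0-p3 and the build mm10. The paper names Novogene for sequencing and DESeq2 for the comparison. The aligner and the handling of strand and multiple matches are not given in the sources used here. Another deposited table holds the authors' own comparison and was not used. It also has 18 further columns of values per sample, likewise unused.

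Counts were tested with edgeR version 4.0.16 (R 4.3.3; quasi-likelihood test, TMM, filterByExpr by group, prior count of 0.125, no replicate term), with Benjamini-Hochberg adjustment over 12296 genes. The threshold was an adjusted p of 0.05, and a DEG also had an absolute log2 fold change over 1.5. CPM were computed over the TMM-scaled library size unless total counts are named, and levels per kb divide CPM by the gene length in the table. Total counts per library were 16363767 to 17956772. Limits from counts of 0 cover counting error only. The scripts were tested on simulated data. DESeq2 version 1.42.0, RLE size factors, other filters, robust dispersion, a replicate block, a prior count of 2, protein-coding genes alone, glmTreat and each library left out were the alternatives.

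The members and lists were chosen with earlier results of these data known. Named members are those that passed the test, the 10 highest per kilobase and those of extreme spread at a mean of at least 50 counts, which 1 gene reached, and the other tested members are given as well. From each list the up to 4 called genes with the highest CPM were eligible, and Slbp, H3f3a, H3f3b, H2afz and H1f0 always. Symbols were those of the table, and 2 of 23 symbols of mRNA processing genes were not matched.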

Additional observations from a re-analysis of the deposited data

How the results depend on the processing

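The count of clustered histone genes lower with LPS was 1 by edgeR and 0 with DESeq2, with control replicate 1 alone against LPS, and without both replicates 3, and it was between 0 and 1 when each library was left out in turn. The settings with control replicate 1 alone and without both replicates 3 were chosen after seeing the data. With the replicate block the count was 1. The labels do not say whether equal replicate numbers mark paired samples. Correlations of same-numbered deviations were 0.136, 0.0588 and -0.00415, and those of unlike numbers lay between -0.144 and 0.0912. Such weak values cannot decide whether the samples were paired. The block changed no call of a tested member. The counts of 0 higher genes and 0 DEG were the same in every setting run. The median log2 fold change of the tested members lay between -0.18 (without control replicate 1) and 0.12 over the libraries left out. The set of tested members also changed there, with between 13 and 17 passing the filter, against 11 with all libraries. These medians are thus not over the same genes. The median CV was 5.57% at a mean of at least 50 counts, where Hist1h1c is the single gene left, and between 30.8% and 38.1% over the libraries left out. The ratio of summed counts stayed between 0.825 and 0.892 over the libraries left out. All members but Hist1h1c rest on low counts, and the causes of these shifts were not tested.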
